A study of Mus musculus with 6 samples.

Results

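The glutathione and antioxidant defence genes of the mouse renal cortex were taken from the array as every non-control probe whose gene name belongs to the glutathione transferases, glutathione peroxidases, peroxiredoxins, thioredoxins, superoxide dismutases, catalase, glutathione synthesis enzymes or the NRF2 pathway. This name rule used no measured value. It gave 88 probes of 56 genes among the 56470 probes kept, and 77 of these probes, from 53 genes, were bright enough to be tested. Gpx5, Gstt4 and Mgst2 had no tested probe.

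The tissue was renal cortex from male mice aged 16 weeks, of which 3 arrays carry the label db/m and 3 the label db/db. Mice of the db/db genotype carry a mutated leptin receptor on both chromosomes and develop obesity and diabetes, whereas db/m mice carry 1 mutated copy and are the usual lean control. The labels name the groups by these genotypes. The paper's methods and the design text instead describe db/db mice given Huangqi decoction (HQD), a herbal mixture, for 8 weeks, against untreated db/db mice. In the paper, db/db mice without HQD and db/m mice received the vehicle, carboxymethylcellulose, by daily gavage over the same 8 weeks. The source names call the arrays labelled db/m controls and those labelled db/db models. Whether the arrays labelled db/m hold lean controls or HQD-treated db/db mice cannot be told from these sources, and the names of the labels are kept here. All differences subtract db/db from db/m. The paper's methods take the RNA from 3 mice per group, which is 1 mouse per array.

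Levels are log2 intensities relative to the 75th percentile of the array. Median intensities ran from 76.0 to 112 and between 53.7% and 60.9% of probes were well above background. The arrays lay on 3 slides. Slide 1 held db/m replicate 1 and db/db replicate 3, slide 2 held only db/m arrays and slide 3 only db/db arrays, so that only slide 1 allows a comparison within a slide. Over all tested probes, db/m replicate 2 correlated with db/db replicate 3 at r = 0.992 and with its own group at 0.982 and 0.988, and both arrays therefore stood apart from their labels. Proximal tubule markers, which define most of the cortex, were bright on every array, with a summed level of 13 markers from 1577 to 2453 multiples of the 75th percentile. In bulk tissue, fewer cells of a type and less RNA per cell cannot be told apart.

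Glutathione is the main small thiol of the cell, and the proximal tubule is known for both its synthesis and its breakdown. Glutathione transferases join it to reactive compounds, glutathione peroxidases use it to reduce peroxides, and peroxiredoxins do the same with thioredoxin. KEAP1 holds the transcription factor NRF2 at a low level until oxidants or electrophiles release it, after which NRF2 binds antioxidant response elements in many of these genes.

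The probes that the results below turn on are shown here as the array carries them, in the sense direction, because several belong to paralogs that resemble each other. Each is a 60-base oligonucleotide, of which the whole or the first 30 bases are given, in lower case throughout.
Gstt2, whole, chr10:75295206-75295265, minus strand: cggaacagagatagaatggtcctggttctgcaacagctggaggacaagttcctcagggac
Gstm4, whole, chr3:107846495-107846847, minus strand: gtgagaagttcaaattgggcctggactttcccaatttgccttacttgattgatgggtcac
Gstp1, whole, chr19:4037306-4037365, minus strand: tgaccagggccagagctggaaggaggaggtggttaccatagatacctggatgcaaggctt
Mgst2, whole, chr3:51486449-51486508, plus strand: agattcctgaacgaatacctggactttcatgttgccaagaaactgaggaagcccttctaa
Gsta2, first 30 bases, chr9:78178856-78178915, minus strand: gccacagatactggcctctaattgtttgca
Gsto2, first 30 bases, chr19:47960702-47960761, plus strand: cggtcattctgatgtctgcatcacgggtca
Gstm2, first 30 bases, chr3:107784622-107784681, minus strand: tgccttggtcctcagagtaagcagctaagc
Nfe2l2, brighter probe, first 30 bases, chr2:75513771-75513830, minus strand: ctcaagttaatttcttaggcaccatttggg
Nfe2l2, dimmer probe, first 30 bases, chr2:75529291-75529350, minus strand: gtgctctgtcacctttaatatcacaacaat
Coordinates are on mm9 as the scanner files list them, and cover the whole probe. The Gstm4 probe covers 353 bases of the genome, so that its 60 bases are split between at least 2 blocks. Of the 88 member probes, 71 carry transcript accessions of 1 RefSeq gene, 15 carry none, and 2 carry accessions of 2 genes. These 2 are the Gstp1 probe, which is also assigned to Gstp2, and a Prdx6 probe also assigned to Prdx6b, and their values may hold signal of both genes.

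The members lay mostly below 0. Of the 77 tested probes, 66 (85.7%) had a lower mean in the group labelled db/m, against 53.5% of all 29891 tested probes. A probe is said to be called at an unadjusted limma p under 0.05. By this measure 22 member probes were called lower in labelled db/m, or 28.6% of them, against 10.8% of all tested probes. Only 2 were called higher, a Gsto2 and a Sod1 probe, where 6.9% of all probes were. In either direction the 24 calls made 31.2%, against 17.7% of all probes.

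No member probe passed a Benjamini-Hochberg adjusted p of 0.05 in limma, nor did any of all 29891 probes (0%), and the lowest adjusted p of a member was 0.24. The paper names no test for the arrays. An ordinary equal-variance test without limma's shared spread gave 24 calls at an unadjusted p under 0.05, against 15.4% of all probes, and 0 after adjustment. All 24 were lower in labelled db/m and 0 higher, where 11.2% of all probes were called lower and 4.28% higher. In 29 member probes (37.7%) all 3 arrays labelled db/m lay below all 3 labelled db/db, against 16.4% of all tested probes, and in 2 they lay above, against 7.75%. The median difference of the member probes was -0.22 on the log2 scale, and that of all tested probes was -0.03.

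Counted by gene, with the brightest tested probe standing for it, 45 of 53 genes lay below 0, against 58% of the 14669 tested genes matched in RefSeq. The 11 genes called lower made 20.8% (10.1% of all tested genes), and only Gsto2 was called higher (4.81% of all). The median of the 53 genes was -0.20 and that of all tested genes was -0.05.

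The calls depended on single arrays. The 22 lower calls became 9 without db/m replicate 3, 11 without db/db replicate 1 and 11 without db/db replicate 2, with 4.06%, 5.55% and 5.14% of all probes called lower in those fits. Without db/m replicate 2 the count was 28, and without both arrays that stand apart it was 29, but the share of all probes called lower also rose, to 13.7% and 16.5%. Under quantile normalization 12 member probes, or 15.6%, were called lower against 10.5% of all probes, and their median was -0.09. Within slide 1 alone, the median difference of the members was -0.21 and 62 of 77 lay below 0, against a median of -0.04 over all probes. With the slide as a fixed block, 2 members were called lower, against 5.16% of all probes.

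**Figure D1:**
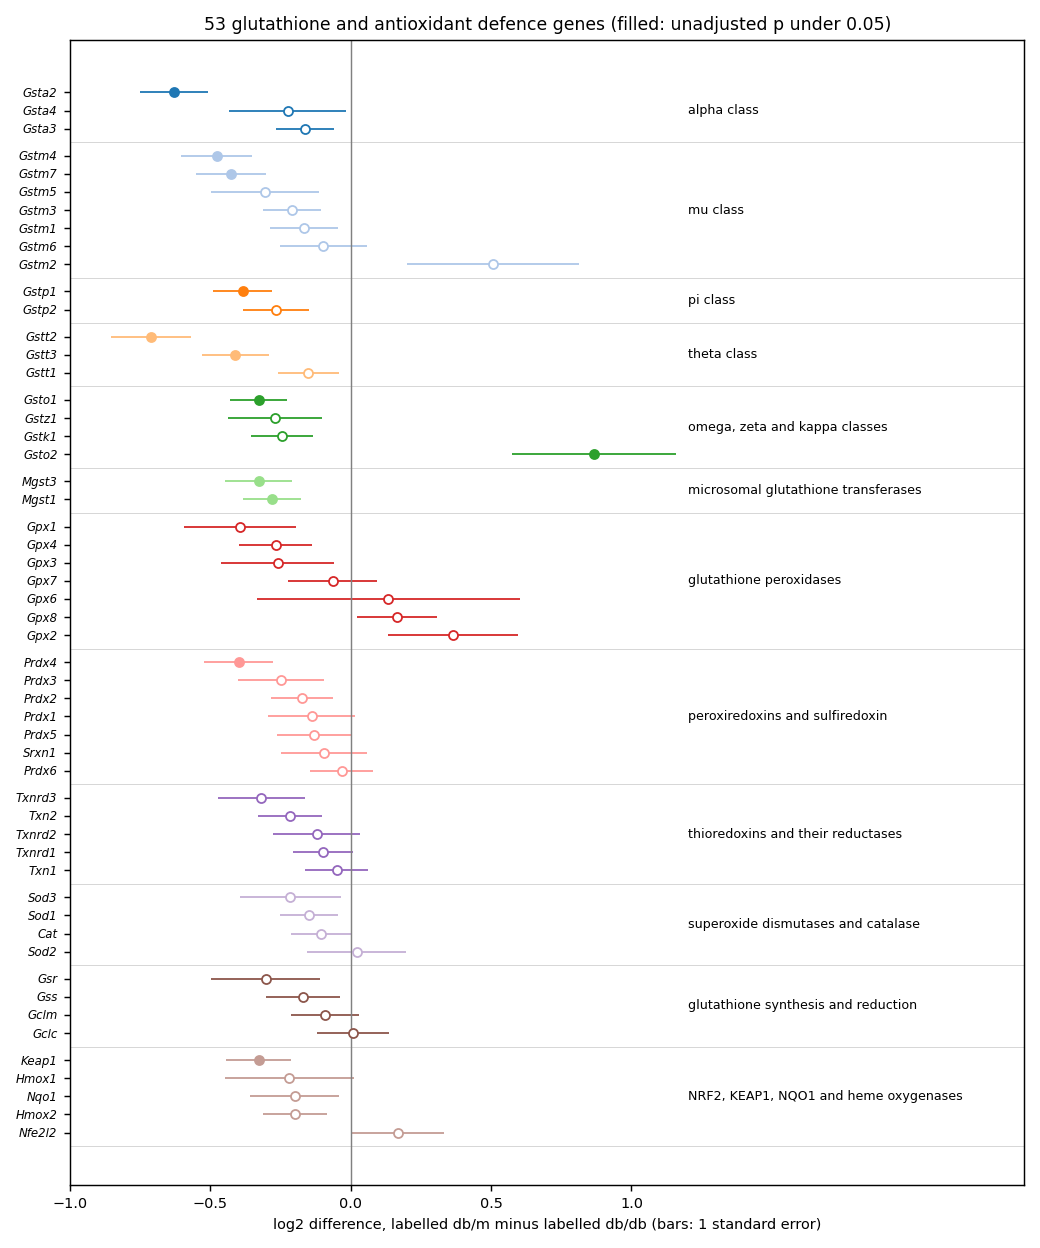
Log2 difference (labelled db/m minus labelled db/db, horizontal axis) of the 53 genes by their brightest tested probe, grouped by family, with bars of 1 standard error; filled points have an unadjusted p under 0.05. Most points lie left of 0, with Gstt2 lowest at -0.71 and Gsto2 highest at 0.87.

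The direction of a difference moved with brightness, and most members are bright. With all tested probes split by signal into 4 bins of equal size, the median difference was 0.16 in the dimmest bin and -0.14 in the brightest. Of the 77 member probes, 59 lay in the brightest bin, with a median of -0.25. There, 17 of the 59 (28.8%) were called lower against 15.1% of all probes of that bin, and 54 lay below 0 against 76.7% of all. The part of brightness in the members' difference was not tested. Quantile normalization, which levels the arrays' intensity distributions, brought the median of the brightest bin to -0.01.

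**Figure D2:**
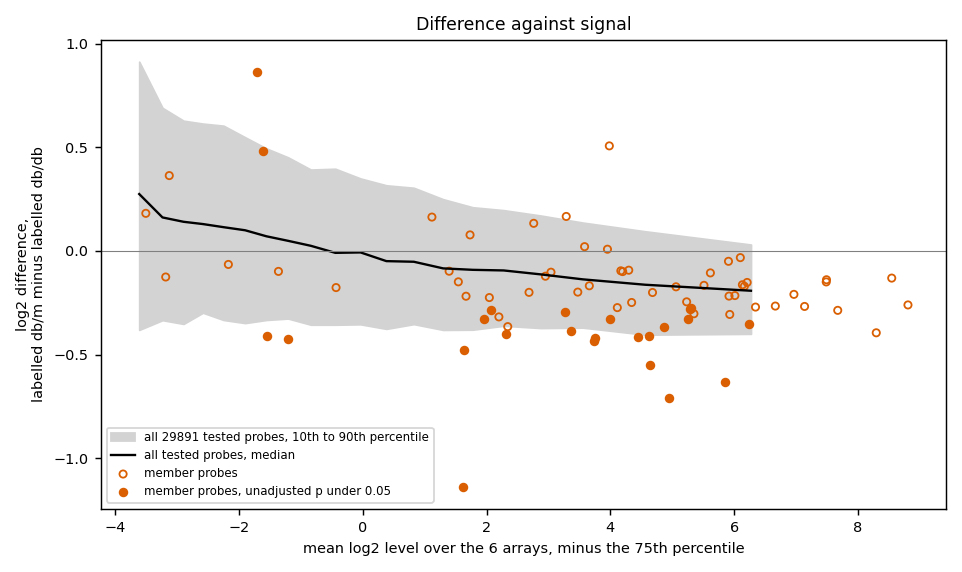
Log2 difference (vertical axis) against the mean log2 level over the 6 arrays (horizontal axis); the line and the grey band give the median and the range from the 10th to the 90th percentile of all 29891 tested probes in 20 bins of signal, and circles are member probes, filled at an unadjusted p under 0.05. The line declines with signal, and the 59 brightest members have a median of -0.25 against -0.14 for all probes there.

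Of the 24 called probes, 12 belong to the soluble glutathione transferases, which have 27 tested probes. Of these 27, 11 were called lower (40.7%, against 10.8% of all probes) and the Gsto2 probe higher. Gstt2, a theta-class transferase, measured 4.47, 4.81 and 4.49 in labelled db/m and 5.37, 5.42 and 5.12 in labelled db/db. The groups did not overlap, and each db/m array was below every db/db array. The difference was -0.71 ± 0.14 (SE, adjusted p = 0.24, limma), a level 61.1% of that labelled db/db. Gstt2 kept an unadjusted p under 0.05 in all 19 alternatives, and within slide 1 its difference was -0.65. The dimmer Gstt2 probe differed by -0.37 (adjusted p = 0.359).

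Gsta2, an alpha-class enzyme that also reduces lipid peroxides, measured 5.54, 5.53 and 5.53 in labelled db/m and 6.24, 5.96 and 6.29 in labelled db/db. The difference of -0.63 ± 0.12 (SE, adjusted p = 0.24, limma) put it at 64.6% of the level labelled db/db. It also kept an unadjusted p under 0.05 in all 18 alternatives, and within slide 1 it differed by -0.75. The other alpha-class genes were closer between the groups. Gsta3 measured 6.09, 6.10 and 5.97 against 6.26, 6.26 and 6.13, a difference of -0.16 (adjusted p = 0.413). Gsta3's second probe was called lower at -0.28 (adjusted p = 0.272), and its dimmest lay at 0.18 (adjusted p = 0.553). This dimmest probe was well above background on 3 arrays labelled db/m but on 2 labelled db/db, and so was tested only through the group where it is higher.

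The mu class has 7 tested genes, whose probes lie in a cluster on chromosome 3, apart from 1 Gstm1 probe that the files place on chromosome 5. Gstm4 measured 1.49, 1.33 and 1.36 against 2.02, 1.90 and 1.69, and differed by -0.48 ± 0.13 (SE, adjusted p = 0.24, limma). Gstm7 measured -1.33, -1.37 and -1.56 against -0.86, -0.97 and -1.14, and differed by -0.43 ± 0.12 (SE, adjusted p = 0.24, limma). Neither gene's groups overlapped. Gstm7 lost its call without db/m replicate 3, where it differed by -0.36, and both genes lost it with the slide as a fixed block, with within-slide differences of -0.20 and -0.19.

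Gstm3, the brightest of the class, measured 6.95, 6.83 and 6.80 against 7.12, 7.11 and 6.98, a difference of -0.21 (adjusted p = 0.328). In Gstm5 the brightest probe was not called (-0.31, adjusted p = 0.406) and the other was (-0.55, adjusted p = 0.247). Gstm2 was the only mu-class gene above 0. It measured 4.46, 3.54 and 4.71 against 3.98, 3.54 and 3.67, a difference of 0.51 ± 0.31 (SE, adjusted p = 0.392, limma), with db/m replicates 1 and 3 high and db/m replicate 2 at the level of the db/db arrays.

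In the pi class, whose best known member Gstp1 also binds stress kinases, the Gstp1 probe measured 3.09, 3.24 and 3.18 against 3.48, 3.62 and 3.57. It differed by -0.39 ± 0.10 (SE, adjusted p = 0.24, limma), and -0.48 within slide 1, and was no longer called with the slide as a fixed block. Gstp2 measured 6.42, 6.59 and 6.59 against 6.66, 6.89 and 6.84, a difference of -0.27 (adjusted p = 0.292) that missed the threshold, although its groups did not overlap either.

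Of the other theta-class genes, Gstt3 measured 4.56, 4.34 and 4.34 against 4.94, 4.76 and 4.77, and differed by -0.41 ± 0.12 (SE, adjusted p = 0.24, limma). Its call was lost under quantile normalization (-0.25), with the authors' deposited log2 values (-0.24) and with the slide as a fixed block (-0.21). Gstt1 measured 6.21, 6.14 and 6.06 against 6.40, 6.25 and 6.20, a difference of -0.15 (adjusted p = 0.456), and its groups overlapped.

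The omega-class neighbours Gsto1 and Gsto2, which reduce dehydroascorbate and lie close together on chromosome 19, went in opposite directions. Gsto1 measured 5.05, 5.09 and 5.14 against 5.44, 5.49 and 5.34, and differed by -0.33 ± 0.10 (SE, adjusted p = 0.24, limma). Its other probe differed by -0.44 (adjusted p = 0.24). The brighter probe was not called under quantile normalization (-0.16), with the authors' deposited log2 values (-0.16) or with the slide as a fixed block (-0.29). Gsto2 measured -0.92, -1.98 and -0.90 against -2.10, -2.22 and -2.09, a difference of 0.87 ± 0.29 (SE, adjusted p = 0.245, limma), or 182% of the level labelled db/db. The 3 arrays labelled db/m lay above the others, but db/m replicate 2 only just.

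Without db/m replicate 2, the Gsto2 difference was 1.22 with an adjusted p of 0.0447 (limma). This was the only adjusted p under 0.05 of any member in any alternative. The array left out was the db/m array lowest for Gsto2. In that fit 23.2% of all probes had an unadjusted p under 0.05, against 17.7% with all arrays. The share of all probes with an adjusted p under 0.05 is not given for it. Gsto2 lost its call without db/m replicate 1 (0.69), db/m replicate 3 (0.68) or db/db replicate 2 (0.82), with the slide as a fixed block (1.17), and in the equal-variance test. Gstz1, a zeta-class enzyme of tyrosine breakdown, measured 6.0, 6.52 and 6.11 against 6.58, 6.56 and 6.30, a difference of -0.27 (adjusted p = 0.402), and its dimmer probe was called at -0.42 (adjusted p = 0.245).

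The microsomal transferases are membrane proteins that are not related to the soluble families. Mgst1 measured 5.21, 5.15 and 5.07 against 5.51, 5.39 and 5.38, and differed by -0.28 ± 0.10 (SE, adjusted p = 0.26, limma). Its other probe differed by -0.37 (adjusted p = 0.248). Mgst3 measured 3.98, 3.72 and 3.82 against 4.28, 4.12 and 4.09, and differed by -0.33 ± 0.12 (SE, adjusted p = 0.255, limma).

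Neither gene's groups overlapped, but both calls were fragile. Both were lost without db/m replicate 2, db/m replicate 3, db/db replicate 1 or db/db replicate 2, where Mgst1 differed by -0.28, -0.24, -0.24 and -0.30 and Mgst3 by -0.27, -0.32, -0.27 and -0.35. Under quantile normalization, and also with the authors' deposited log2 values, Mgst1 differed by -0.10 and Mgst3 by -0.20, and neither was called. With the slide as a fixed block they differed by -0.17 and -0.11, and again neither was called. Both calls were also lost without a filter on dim probes (-0.28 and -0.33) and without both arrays that stand apart (-0.31 and -0.31). Mgst3 lost its call as the mean of its tested probes (-0.23). The other Mgst3 probe in that mean was 145-fold dimmer and lay at -0.13 (adjusted p = 0.784, limma). It was well above background on 3 arrays labelled db/m but on 2 labelled db/db.

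**Figure D3:**
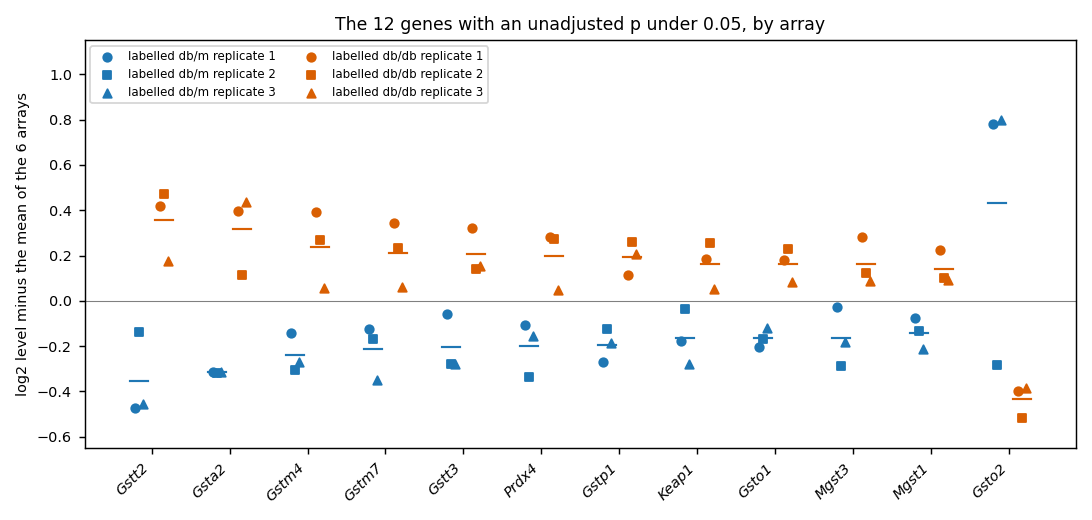
Log2 level of each array minus the mean of the 6 arrays (vertical axis) for the 12 genes with an unadjusted p under 0.05; symbols mark replicates and short lines are group means. In 11 genes every db/m array lies below every db/db array, and in Gsto2 db/m replicates 1 and 3 stand above the other 4 arrays.

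Some members were higher on db/m replicates 1 and 3 than on all 4 other arrays. Among the tested probes these were 6 of 77 (7.79%), of Gsto2, Gstm2, Gpx2, Gpx6, Gpx8 and Nfe2l2, which is a share below the 12.3% of all tested probes. The untested Mgst2, a microsomal enzyme that can make leukotriene C4, showed it too. The Mgst2 probe was well above background only on db/m replicates 1 and 3, at -3.56 and -3.07, and not on db/m replicate 2 or any array labelled db/db. Db/m replicate 2, at -5.77, lay at the level of the arrays labelled db/db (-5.61, -5.84 and -5.79). With db/m replicate 2 taken at that signal, the mean of the group labelled db/m came to 2.17-fold higher. This is a rough value and not a lower limit. A signal that is not well above background can exceed the dimmest one that is. Only 2 of the 3 arrays labelled db/m were measured, and no test was made. Gpx2, a glutathione peroxidase of epithelia, measured -2.81, -3.43 and -2.59 against -3.09, -3.47 and -3.36, a difference of 0.36 (adjusted p = 0.411). Gpx6 measured 3.73, 1.75 and 3.01 against 2.92, 2.47 and 2.69, so that db/m arrays were both the highest and the lowest. Gpx8, of the endoplasmic reticulum, measured 1.27, 0.93 and 1.39 against 1.02, 1.09 and 1.0, a difference of 0.16 (adjusted p = 0.536). These genes were grouped after their values were seen.

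Markers of several cell types showed the same pattern. These were 4 of 9 tested immune cell markers (Adgre1, Csf1r, Itgam and Lyz2), 2 of 7 of the endothelium (Cdh5 and Emcn) and 2 of 9 of the thick limb and distal tubule (Kcnj1 and Slc12a1). So did 1 of 6 of proximal tubule segment 3 (Slc7a13), 1 of 3 of adipose tissue (Fabp4) and 1 of 5 of red blood cells (Slc4a1). None of 13 of the proximal tubule, 8 of the podocyte or 2 of the adrenal did, against 12.3% of all tested probes. In the collecting duct, Fxyd4, Aqp2, Slc4a1 and Avpr2, 4 of its 9 markers, were higher on db/m replicates 1 and 3 than on the other 4 arrays, and the other 5 (Aqp3, Foxi1, Scnn1g, Atp6v0d2 and Atp6v1g3) were not. The summed level of its 9 markers was 121, 61.7 and 119 in labelled db/m and 71.7, 70.6 and 62.3 in labelled db/db. Much of this came from Fxyd4, and without it the sum was 69.5, 48.1 and 59.5 against 54.9, 58.3 and 49.3. Of the 9 markers, 5 lay below 0 and 4 above with a median of -0.07, 1 was called lower and 1 higher. Fxyd4, a regulator of the sodium pump in the collecting duct, measured 5.68, 3.76 and 5.90 against 4.07, 3.62 and 3.70, a difference of 1.32 (adjusted p = 0.279). The water channel gene Aqp2 measured 4.58, 3.37 and 4.02 against 3.55, 3.63 and 3.35 (adjusted p = 0.393). The part of these cell types in the members' pattern was not tested.

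**Figure D4:**
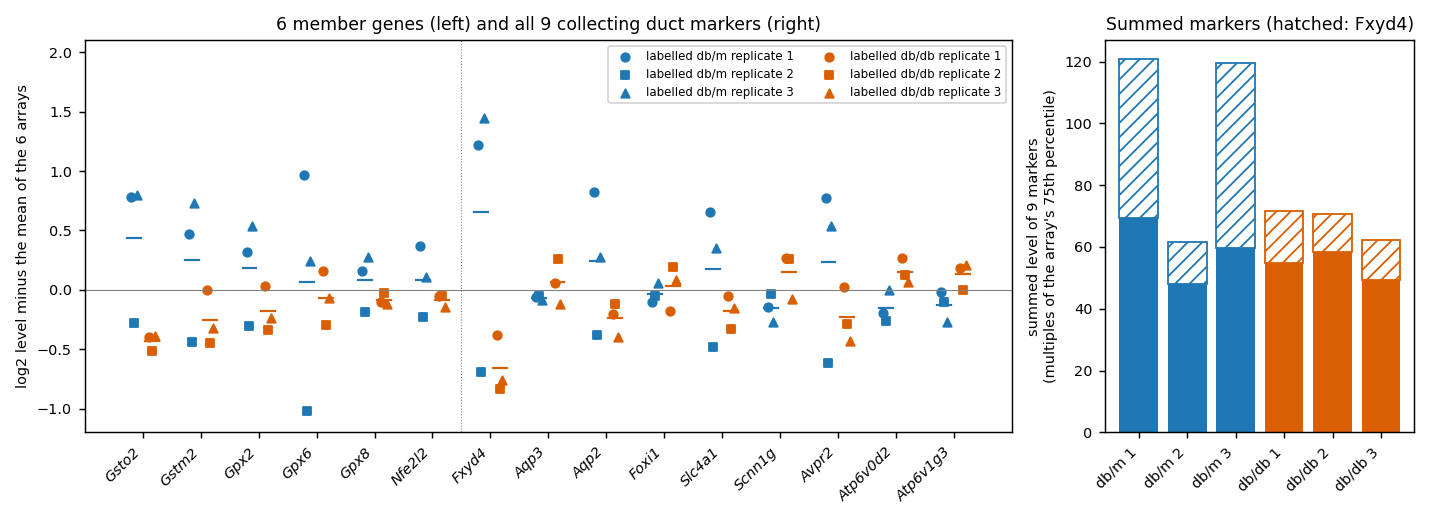
Left, log2 level of each array minus the mean of the 6 arrays (vertical axis) for Gsto2, Gstm2, Gpx2, Gpx6, Gpx8 and Nfe2l2 and for all 9 collecting duct markers, with short lines at group means; right, bars of the summed level of the 9 markers in multiples of the array's 75th percentile, with the part of Fxyd4 hatched. Db/m replicates 1 and 3 stand above the other arrays in 4 of the 9 markers, and their sums of 121 and 119 fall to 69.5 and 59.5 without Fxyd4.

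No glutathione peroxidase was called, and 4 of its 7 tested genes lay below 0. Gpx3, the secreted peroxidase that the proximal tubule releases into plasma, measured 8.31, 9.10 and 8.62 against 8.88, 8.94 and 8.98, a difference of -0.26 ± 0.20 (SE, adjusted p = 0.487, limma). The db/m arrays spread to both sides of the db/db arrays. Gpx1, the main cytosolic form, differed by -0.40 (adjusted p = 0.331), and Gpx4, which reduces lipid peroxides in membranes, by -0.27 (adjusted p = 0.318).

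Summed proximal tubule markers stood at 1577, 2453 and 1878 in labelled db/m and at 2128, 2415 and 2292 in labelled db/db. Of the 13 markers, 12 lay below 0 with a median of -0.31, and 1 was called lower. The sum, like Gpx3, was lowest on db/m replicate 1 and highest on db/m replicate 2. The median deviation of the member probes from their means was -0.15, -0.03 and -0.17 on the db/m arrays and 0.11, 0.18 and 0.05 on the db/db arrays. The part of the proximal tubule share in the members' difference was not tested.

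Among the peroxiredoxins, all 7 tested genes lay below 0, Srxn1 included, but their median of -0.14 became 0.00 under quantile normalization. Prdx4, the peroxiredoxin of the endoplasmic reticulum, was called. It measured 2.20, 1.98 and 2.15 against 2.59, 2.58 and 2.36, with a difference of -0.40 ± 0.12 (SE, adjusted p = 0.24, limma). The call was lost without db/db replicate 1, where it differed by -0.36, and with the slide as a fixed block, where it differed by -0.15.

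Prdx5 measured 8.28, 8.69 and 8.47 against 8.60, 8.60 and 8.63, a difference of -0.13 (adjusted p = 0.589). Srxn1, sulfiredoxin, which restores overoxidised peroxiredoxins, measured 3.93, 4.36 and 4.07 against 4.08, 4.38 and 4.19, a difference of -0.10 (adjusted p = 0.736). Dimmer probes of Prdx1 (-0.35, adjusted p = 0.271), Prdx2 (-0.30, adjusted p = 0.249) and Prdx6 (-0.42, adjusted p = 0.24) were called where the brightest was not, and the Prdx6 one is the probe also assigned to Prdx6b.

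The 5 thioredoxin and thioredoxin reductase genes lay below 0 with a median of -0.12 (-0.02 under quantile normalization), and none was called by its brightest probe. Txn2, mitochondrial thioredoxin, measured 5.76, 5.93 and 5.73 against 6.04, 6.11 and 5.92, a difference of -0.22 (adjusted p = 0.341). A dim probe of Txnrd2, the mitochondrial reductase, was called at -0.41 (adjusted p = 0.245), where its brightest lay at -0.12 (adjusted p = 0.671).

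Superoxide dismutases and catalase had a median of -0.13, which turned to 0.03 under quantile normalization, and no brightest probe was called. Sod1, the cytosolic copper-zinc enzyme, measured 7.34, 7.50 and 7.39 against 7.63, 7.52 and 7.53, a difference of -0.15 ± 0.10 (SE, adjusted p = 0.447, limma). Sod2, the mitochondrial manganese enzyme, measured 3.49, 3.84 and 3.45 against 3.28, 3.76 and 3.68, a difference of 0.02 (adjusted p = 0.954). Sod3, the extracellular form, measured 5.60, 6.27 and 5.84 against 6.05, 6.19 and 6.11, a difference of -0.22 (adjusted p = 0.518).

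Cat, the peroxisomal catalase, measured 5.50, 5.67 and 5.52 against 5.57, 5.72 and 5.71, a difference of -0.11 (adjusted p = 0.598). The groups of Sod2, Sod3 and Cat overlapped. For Sod1, a probe matched to no RefSeq transcript, and 547-fold dimmer than the brightest, went the other way. It measured -1.19, -1.34 and -1.57 against -1.82, -1.62 and -2.11, and was called higher at 0.48 ± 0.17 (SE, adjusted p = 0.248, limma).

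The enzymes that make and recycle glutathione were not called. Gclc, the catalytic subunit of the rate-limiting ligase, measured 4.12, 3.99 and 3.77 against 3.89, 4.03 and 3.92, a difference of 0.01 ± 0.13 (SE, adjusted p = 0.973, limma). Its modifier subunit Gclm measured 4.28, 4.39 and 4.09 against 4.28, 4.44 and 4.31, a difference of -0.09 (adjusted p = 0.682). Gss, glutathione synthetase, measured 5.96, 6.28 and 6.0 against 6.22, 6.39 and 6.14, a difference of -0.17 (adjusted p = 0.491). In all 3 genes the groups overlapped. Gsr, the reductase, differed by -0.30 (adjusted p = 0.413), and the median of the 4 genes, -0.13, became 0.04 under quantile normalization.

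In the NRF2 pathway, Keap1, the adaptor that hands NRF2 to a CUL3 ubiquitin ligase, measured 1.78, 1.92 and 1.68 against 2.14, 2.21 and 2.01. It differed by -0.33 ± 0.12 (SE, adjusted p = 0.251, limma), without overlap between the groups. The call was lost without db/m replicate 1 (-0.32), db/m replicate 3 (-0.27), db/db replicate 1 (-0.32) or db/db replicate 2 (-0.28), with the slide as a fixed block (-0.23) and without a filter on dim probes (-0.33). Nqo1, a quinone reductase and a textbook NRF2 target, measured 2.91, 2.44 and 2.41 against 2.84, 2.81 and 2.71, a difference of -0.20 (adjusted p = 0.495), with db/m replicate 1 above all others.

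Hmox1, the inducible heme oxygenase, measured 1.21, 1.94 and 1.53 against 1.44, 2.0 and 1.90, a difference of -0.22 ± 0.23 (SE, adjusted p = 0.607, limma). Hmox2, the constitutive form, measured 3.31, 3.52 and 3.30 against 3.53, 3.65 and 3.54, a difference of -0.20 (adjusted p = 0.371), and its dimmer probe was called at -0.28 (adjusted p = 0.255). The Hmox1 groups overlapped and the Hmox2 groups did not.

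Nfe2l2, the gene of NRF2, had 2 probes of opposite sign, whose sequences stand above. The brighter probe is matched to a RefSeq transcript of the gene and the dimmer to none. The brighter measured 3.66, 3.06 and 3.39 against 3.24, 3.23 and 3.14, a difference of 0.17 ± 0.16 (SE, adjusted p = 0.582, limma). Under median centring this probe lay at -0.02. The dimmer measured 1.42, 0.84 and 0.90 against 2.88, 2.63 and 1.07, a difference of -1.14 ± 0.47 (SE, adjusted p = 0.278, limma). This dimmer probe was the only member past the paper's screen, a fold change of 2 or 0.5 with p under 0.05, which 0.96% of all tested probes passed. It was high on the 2 arrays of slide 3 and on no other, and within slide 1 it differed by 0.35 in the opposite direction.

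**Figure D5:**
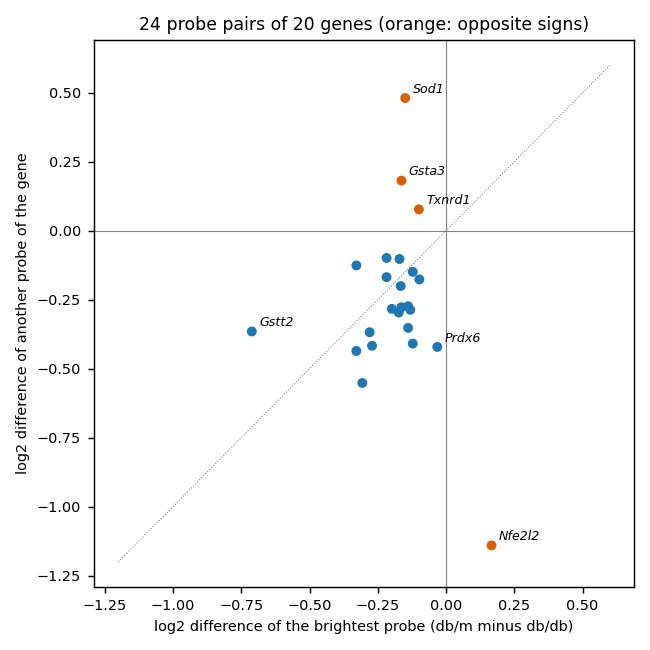
Log2 difference of the brightest probe of a gene (horizontal axis) against that of each other tested probe of the same gene (vertical axis), for 24 pairs in 20 genes; the dotted line marks equal values. Nfe2l2, Sod1, Gsta3 and Txnrd1 have probes of opposite sign, and the upper Gsta3 probe was tested only through the db/m arrays.

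Disagreement between probes of a gene was frequent on the whole array. Of 24 pairs of a brightest and another member probe, in 20 genes, 4 (16.7%, that Gsta3 probe included) differed in sign and 12 (50%) in whether they were called, against 28.6% and 23.9% of the 6037 such pairs of all genes matched in RefSeq. In all, 14 pairs (58.3%) differed in either, against 48.2%. Of the 24 other probes, 11 (45.8%) were called lower and 1 (4.17%) higher, against 18.8% and 4.41% of the other probes of all genes.

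Promoters of the members were searched for the core of the antioxidant response element, TGACNNNGC, on both strands, in RefSeq windows of 300 bases on GRCm38.p6 that run from 250 bases before to 50 after the start. The core was present in 10 of 65 windows of 49 matched members (15.4%), and in 12.4% of all 32851 windows. By gene this was 10 of 49 (20.4%) against 14.0% of all. Each stretch is shown in the direction of its gene, with the core in capitals, because NRF2 acts through this element. A match is a description of the sequence and not a binding site.
Gsta3, chr1:21240454-21240482: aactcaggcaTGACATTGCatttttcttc
Gstm5, chr3:107895802-107895830: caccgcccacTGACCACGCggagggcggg
Gstm7, chr3:107931725-107931753: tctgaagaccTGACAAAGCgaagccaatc
Nfe2l2, chr2:75704885-75704913: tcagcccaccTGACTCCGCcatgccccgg
Mgst1, chr6:138140461-138140489: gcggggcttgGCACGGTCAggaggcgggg
Gclm, chr3:122245413-122245441: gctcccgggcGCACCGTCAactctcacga
Prdx1, chr4:116685456-116685484: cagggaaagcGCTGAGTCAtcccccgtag
Txnrd1, chr10:82859104-82859132: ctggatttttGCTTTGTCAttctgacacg
Srxn1, chr2:152105542-152105570: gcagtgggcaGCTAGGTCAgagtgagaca
Sod1, chr16:90220696-90220724: gccaaggtggGCGTGGTCAgactcaggcc
The first 4 read in the forward direction and the other 6 in reverse. The Gstm7 and Nfe2l2 stretches lie on the minus strand and the others on the plus strand. The 10 genes with the core had a median difference of -0.14. Of these 10, Gstm7 and Mgst1 were called lower, where 20.8% of the tested member genes and 10.1% of all tested genes were. The 36 tested genes with a window but without the core had a median of -0.20. Sequence outside the windows was not searched, so these genes may hold the core elsewhere.

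Other genes of these pathways, from lists chosen by function, were counted in the same way. Of 95 tested genes in 7 lists, 67 (70.5%) lay below 0 with a median of -0.15, where 58% of all tested genes and 76.7% of the probes of the brightest bin did. The 17 called lower made 17.9%, against 10.1% of all genes, and the 4 called higher made 4.21%, against 4.81%. The 17 became 6 without db/m replicate 3, 8 without db/db replicate 2, 11 without db/m replicate 1 and 28 without db/m replicate 2, with 3.65%, 4.35%, 6.46% and 14.3% of all genes called lower in those fits.

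In glutathione turnover, 3 of 21 tested genes (14.3%, against 10.1% of all genes) were called lower and none higher. Dpep1, the brush border peptidase that splits cysteinylglycine, differed by -1.11 ± 0.36 (SE, adjusted p = 0.244, limma). It measured 2.08, 3.57 and 3.05 against 3.78, 4.22 and 4.02. The conjugate exporter Abcc2 differed by -0.62 (adjusted p = 0.24) and Ggt6, of the gamma-glutamyltransferase family, by -0.49 (adjusted p = 0.273).

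In thiol repair, 3 of 16 tested genes (18.8%, against 10.1% of all) were called lower and none higher, namely glutaredoxin Glrx (-0.70, adjusted p = 0.24), the SOD1 copper chaperone Ccs (-0.42, adjusted p = 0.24) and mitochondrial Glrx5 (-0.32, adjusted p = 0.266). None of the 9 tested genes of NADPH supply was called, though 8 lay below 0.

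Among 18 other NRF2 targets, 6 (33.3%, against 10.1% of all genes) were called lower and 2 higher (4.81% of all). The prostaglandin reductase Ptgr1 differed by -0.60 (adjusted p = 0.24) and the aldehyde reductase Akr7a5 by -0.47 (adjusted p = 0.24). The aldo-keto reductase Akr1b8 went the other way at 0.76 (adjusted p = 0.24), measuring 1.58, 1.03 and 1.64 against 0.41, 0.49 and 1.07. Of 10 NRF2 partners, 5 lay below 0 and 5 above, with a median of -0.01. Cul3 (-0.39, adjusted p = 0.244) and Dpp3 (-0.36, adjusted p = 0.248) were called lower (20%, against 10.1% of all genes). The small MAF protein Maff was called higher (0.52, adjusted p = 0.266), where 4.81% of all genes were.

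Of 13 sources of reactive oxygen, the oxidases Nox4 (-0.53, adjusted p = 0.264) and Xdh (-0.40, adjusted p = 0.24) were called lower. These made 15.4%, against 10.1% of all genes. Cybb, the phagocyte oxidase subunit, was called higher (0.46, adjusted p = 0.272), where 4.81% of all genes were. Immune cell markers moved with Cybb, since 7 of 9 tested markers lay above 0 with a median of 0.37, 4 called higher and 1 lower. Their summed level was 67.7, 48.0 and 53.9 in labelled db/m and 40.8, 36.9 and 46.1 in labelled db/db, and their part in the Cybb difference was not tested. Of 8 relatives of the microsomal transferases and related proteins, Ptges2 was called lower (-0.40, adjusted p = 0.245), or 12.5%, against 10.1% of all genes.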

How the data were processed

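Cy3-labelled cRNA from 6 samples was hybridised to one-colour Agilent arrays. Spot intensity values were deposited as Feature Extraction 10.7.1.1 wrote them (version from the submitters' processing notes), with background subtracted and arrays not scaled to each other. A second deposited file, the authors' log2 table, followed the scanner values at r of at least 0.9996 over tested probes and served as an alternative. This r is taken within each array and does not show how arrays were scaled to each other. The authors' values and quantile normalization gave nearly the same results, with 12 member probes called lower in each. They do not count as separate alternatives. The paper names no normalization or array test.

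With limma 3.58.1 under R 4.3.3, 3671 of 62976 spots were dropped as controls, spots of a probe were averaged, 135 probes with outlier flags were dropped and each array's 75th percentile was subtracted. The file of db/m replicate 1 held 71 other gene names, so names came from a db/db file. A probe was tested if every array of 1 or both groups had it well above background (lmFit, eBayes, Benjamini-Hochberg over all tested probes), and the procedure was tested on simulated data. Precision is limited by 3 arrays per group. An exact permutation test of 3 against 3 cannot go below 0.1.

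Members and gene lists were chosen with earlier results of these data known. Genes were named if their brightest tested probe had an unadjusted p under 0.05, had 1 of the 3 largest differences in either direction or was the brightest of its class. Nfe2l2, Keap1, Nqo1, Hmox1, Gclc, Gclm, Cat, Sod1, Sod2, Sod3, Gpx3 and Srxn1 were named whatever their values, and other pathway genes if called, at most 3 per list. Other probes and genes outside this rule were chosen after their values were seen. For Mgst2 the fold is a rough value and not a lower limit. It sets the mean of the db/m arrays over the higher of the dimmest signal above background and the probe's own signal on each db/db array. In that mean db/m replicate 2 stood at its own signal, which was not well above background. Alternatives covered normalization, background correction, filters, the test, slide, replicate number and single arrays.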

Additional observations from a re-analysis of the deposited data

How the results depend on the processing

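Median centring moved the median of all tested probes from -0.03 to -0.21, and quantile normalization to -0.01. The 24 called member probes became 13 under quantile normalization, 13 with the authors' deposited log2 values and 3 with the slide as a fixed block, where 15.7%, 15.6% and 9.71% of all probes were called (17.7% before), and 10 to 33 when single arrays were left out (7.7% to 24.3% of all probes). The 22 lower calls became 12, 12 and 2 in the same order, 14 (of 88 probes) without a filter on dim probes, and 9 to 28 without single arrays. Of all probes, 10.8% were called lower before, and 10.5%, 10.5%, 5.16%, 4.27% and 4.06% to 13.7% in those settings. By gene, the 12 calls became 2 with the slide as a fixed block and 20 without both arrays that stand apart (7 to 22 without single arrays). Of all genes, 15% were called in either direction before, and 7.81% and 29.8% in those settings (6% to 24% without single arrays). The 11 lower calls became 7 under quantile normalization, 7 with the authors' values and 2 with the slide as a fixed block. They became 17 under median centring and 17 without both arrays (7 to 17 without single arrays). Of all genes, 10.1% were called lower, and 8.41%, 8.39%, 4.96%, 18.9% and 16.7% in those settings (3.65% to 14.3% without single arrays). The 0 adjusted calls became 1 without db/m replicate 2, a fit in which 23.2% of all probes had an unadjusted p under 0.05. They stayed 0 without any other single array. The single probe past the paper's screen became 0 under quantile normalization, the authors' values, no filter, the equal-variance test and the slide as a fixed block. It became 0 to 1 without single arrays and 2 without both arrays. Without both arrays 31.2% of all probes had an unadjusted p under 0.05, and the share past the screen is not given. The median of the members was -0.093 under quantile normalization, -0.40 under median centring and -0.10 with the authors' values. The 31 probes without overlap (24.1% of all probes) became 20 under quantile normalization and 20 with the authors' values, each with 22.1% of all probes. They became 62 without both arrays (64.6% of all probes) and 32 to 59 without single arrays (27.3% to 45.3%). Slide and replicate blocks give no value for this count. The 17 other pathway genes called lower became 33 under median centring, 27 without both arrays and 6 to 28 without single arrays. Of all genes, 18.9%, 16.7% and 3.65% to 14.3% were called lower in those settings. The median of all probes in the brightest of 4 signal bins was -0.0128 under quantile normalization, -0.0139 with the authors' values, -0.33 under median centring and -0.21 without both arrays. Quantile normalization changed the sign of 12 of the 53 genes, none of them called. The removal of both arrays was chosen after seeing the data. The causes of these changes were not tested.

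Same-numbered arrays of the groups deviated together at r = 0.353, 0.148 and 0.046, and differently numbered ones at -0.337 to 0.148. These values do not settle whether the numbers pair the arrays, and the main fit did not pair them. With the replicate number as a block, 27 member probes had an unadjusted p under 0.05, against 21.9% of all probes, and 0 an adjusted one.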
